A study of Mus musculus with 4 samples.

Results

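Interferon response genes were measured in cultured cardiac fibroblasts of PMCA4-/- and WT mice, with and without phenylephrine. The set held 38 genes of the antiviral programme, chosen by name with earlier results of these data known. Counts of them beside all genes are therefore descriptions. Each was read where the deposited tables gave its symbol alone, and where a gene had several probe sets, the one with the highest mean intensity stood for it. Of the 38 genes, 36 were read, among 20586 genes on the arrays. Isg15 and Usp18 were listed only beside another symbol on 1 probe set each and have no values here. A gene was counted in a comparison when its mean intensity was above 35.1, which is the median of all probe sets. This kept 30 of the 36 genes and 11424 genes in all.

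Cells infected by a virus secrete type I interferon, which binds a receptor pair on the surface of the same and neighbouring cells. The receptor activates the kinases Jak1 and Tyk2, and these phosphorylate transcription factors, among them Stat2, which joins Irf9 and switches on genes that carry an interferon-stimulated response element. The products of these genes sense viral nucleic acid, degrade it, block virus entry and assembly, and display viral peptides to T cells. Fibroblasts respond to interferon and can also make it.

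PMCA4 is a plasma membrane calcium pump, encoded by Atp2b4. In the mutant mice a targeted deletion removed exon 2 with some of exon 3, in every cell, and the controls were WT. Fibroblasts of male mice aged 3 months were kept in culture for 4 days, and 30 µM phenylephrine, an α-adrenergic agonist, was applied for 72 hours. The 4 groups were PMCA4-/- with phenylephrine, PMCA4-/- untreated, WT with phenylephrine and WT untreated, with 1 Affymetrix array each. The methods describe the RNA as pooled from batches of cells. With 1 array per condition, a difference between 2 arrays has no replicate check, and genotype cannot be told apart from the cell isolation, the RNA pool or the array. Intensities are those estimated with PUMA, a probe-level model, on a linear scale, with Robust Multiarray Average (RMA) values as the alternative.

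The arrays were alike in their median PUMA intensity, 33.98 to 34.03. Across counted genes, log2 intensities correlated at 0.995 between the PMCA4-/- arrays, 0.995 between the WT arrays and 0.857 to 0.860 between genotypes, as a description over genes, which are not replicates. The only Atp2b4 probe set read 37.9 and 31.6 on the PMCA4-/- arrays with and without phenylephrine, against 23.3 and 19.6 on the WT arrays. These lie close to or under the array median, and since no source says whether the probes fall inside the deletion, they do not check the labels. Of 12 fibroblast markers, 11 exceeded the array median on all arrays, Tcf21 being the exception. All 7 lymphocyte markers were under it on every array, as were 8 of 9 endothelial markers and 6 of 7 cardiomyocyte markers. Of 15 macrophage markers, 10 were under it on every array, with C1qa and C1qc below 1. The other 5, Csf1r, Adgre1, Cd14, Lyz2 and Laptm5, were above it, and the summed macrophage list was 2533 and 2281 in PMCA4-/- cells with and without phenylephrine, against 1799 and 1604 in WT cells. Csf1r and Cd14 made up most of that difference in the sum: the other 13 summed to 611 and 608 in PMCA4-/- cells, against 632 and 560 in WT cells. The summed smooth muscle and pericyte list, 6 genes, was 193 and 163 in PMCA4-/- cells, against 289 and 290 in WT cells. Without Rgs5 the other 5 summed to 158 and 133 in PMCA4-/- cells, against 103 and 105 in WT cells, the opposite direction. The part of other cells in the genotype differences was not tested, and fewer cells of a type and less RNA per cell cannot be told apart in such bulk RNA.

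The first comparison asked how the antiviral genes differed between PMCA4-/- and WT fibroblasts. Of the genes called at 2-fold, all were higher in PMCA4-/- cells. With phenylephrine, 11 of the 30 counted genes were at least 2-fold higher, against 5.23% of all counted genes, and 10 of 30 without it, against 4.89%. With values under the array median raised to it, the counts were 9 and 10. None was at least 2-fold lower in either pair, against 5.32% and 5.16% of all counted genes. By the intensities as deposited, the 10 genes at least 2-fold higher in both pairs were Irf7, Oas1a, Oasl2, Ifit1, Trim25, Cmpk2, Isg20, Ifi44, Ifi27l2a and Rtp4, and 4.24% of all counted genes met that rule. With low values raised, 8 of the 10 still met it, and Irf7 and Cmpk2 did not reach 2-fold with phenylephrine. None was at least 2-fold lower in both, against 4.43%. Another 16 genes were under 1.5-fold apart in both pairs, and Irf9, Oas2, Ifit3 and Xaf1 lay between. The median log2 difference of the 30 genes was 0.46 with phenylephrine and 0.50 untreated, beside -0.01 in each pair over all counted genes. Irf7, Oas1a, Cmpk2 and Ifi44 were under the array median on both WT arrays and were counted only through their PMCA4-/- values, so these counts and medians are descriptions. Of the 26 genes without those 4, 7 were at least 2-fold higher with phenylephrine and 6 untreated. The shares over all counted genes still include such dim genes, and none was computed without them.

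A limma model of genotype and treatment, which takes both pairs as repeats of the genotype difference, called 18 of the 30 genes higher in PMCA4-/- cells at an adjusted p of 0.05, and none lower. The same fit called 50.3% of all counted genes, 24.6% higher and 25.7% lower. Irf7, Oas1a, Cmpk2 and Ifi44 are among the 18, and since they had to differ to be counted, no p is given for them. Of the other 26 genes, 14 were called, with an adjusted p from 0.000851 for Trim25 to 0.0391 for Stat2. The share of all genes called was not computed under the same restriction. The fit has 1 residual degree of freedom, and its errors measure how far the 2 pairs differ, not the spread between cultures. When all 20586 genes were tested with no filter, no gene passed, in the set or outside it. An unadjusted p under 0.05 was found for 16 of the 36 genes, against 5396 of all 20586. When values under the array median were also raised to it, 3 of the 36 passed (Trim25, Bst2 and Ifi44), against 2718 of all 20586. With the median over probe sets, Eif2ak2, Stat2, Ifit3 and Xaf1 were no longer called, at log2 differences of 0.35, 0.37, 0.59 and 0.35 (adjusted p 0.0817 to 0.146), nor was Tap1, whose log2 difference became -0.23. With the shift of the 100 neighbouring genes subtracted, Stat2, Ifit3 and Bst2 were no longer called, at log2 differences of 0.30, 0.27 and 0.20 (adjusted p 0.0665 to 0.174).

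**Figure D1:**
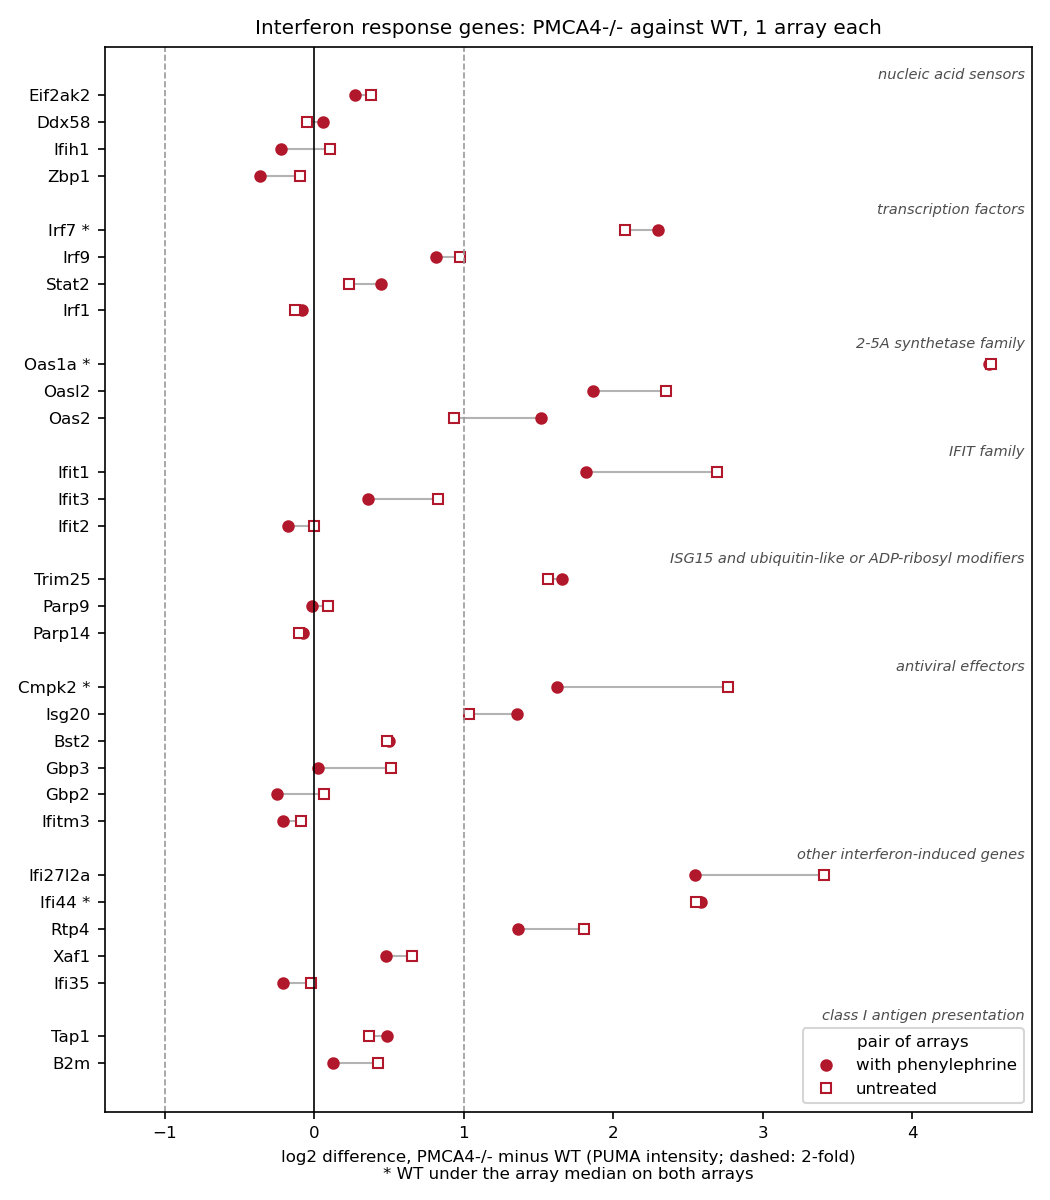
Log2 difference of PUMA intensity, PMCA4-/- minus WT (horizontal axis), for the 30 counted interferon response genes grouped by role, with filled circles for the phenylephrine pair and open squares for the untreated pair, 1 array each. Values ran from -0.36 for Zbp1 to 3.41 for Ifi27l2a among genes above the array median on a WT array. Asterisks mark the 4 genes under it on both WT arrays, whose points are not exact, and dashed lines mark 2-fold.

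Among the transcription factors, Irf7, which amplifies interferon transcription, read 67.1 and 80.7 in PMCA4-/- cells with and without phenylephrine, against 13.6 and 19.1 in WT cells. Both WT values were under the array median, so the difference was at least 1.97-fold with phenylephrine and at least 2.37-fold untreated. By RMA the log2 differences of Irf7 were smaller, 0.45 and 0.99. Irf9, a DNA-binding partner of Stat2, was higher by 0.89 ± 0.08 (SE, adjusted p = 0.00372), and Stat2 by 0.34 ± 0.09 (SE, adjusted p = 0.0391). Irf1, which acts downstream of interferon gamma in particular, read 939 and 934 in PMCA4-/- cells with and without phenylephrine, against 994 and 1020 in WT cells. Its groups were 0.08 and 0.13 apart on the log2 scale, and it did not pass the test (adjusted p = 0.274).

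The 2-5A synthetases make the short oligoadenylates that activate RNase L. Oas1a read 77.9 and 134 in PMCA4-/- cells with and without phenylephrine, against 3.41 and 5.79 in WT cells. The WT values were far under the array median, which sets the difference at no less than 2.29-fold with phenylephrine and 3.93-fold untreated. By RMA, Oas1a read 272 and 323 in PMCA4-/- cells, against 157 and 155 in WT cells, log2 differences of 0.79 and 1.06. Oasl2, a synthetase-like protein, read 202 and 263 in PMCA4-/- cells, against 55.6 and 51.6 in WT cells, 3.64-fold and 5.10-fold higher (limma adjusted p = 0.00202). Oas2 read 146 and 137 in PMCA4-/- cells, against 51.0 and 71.3 in WT cells, 2.86-fold and 1.92-fold higher (adjusted p = 0.00842). By RMA its log2 differences were 0.82 and 0.69. Oas3 and Oasl1 were not counted.

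The IFIT proteins bind viral RNA and block its translation, and their genes neighbour each other on chromosome 19. Ifit1 read 621 and 827 in PMCA4-/- cells with and without phenylephrine, against 177 and 128 in WT cells. The values of the genotypes did not overlap, and the difference was 3.52-fold with phenylephrine and 6.45-fold untreated (limma log2 difference 2.25 ± 0.23 SE, adjusted p = 0.00505). Ifit3 was higher by a smaller amount, with 494 and 625 in PMCA4-/- cells, against 385 and 352 in WT cells (0.59 ± 0.14 SE, adjusted p = 0.0299). With the shift of neighbouring genes subtracted it was 0.27 and not called (adjusted p = 0.174). Ifit2 read 758 and 706 in PMCA4-/- cells, against 856 and 708 in WT cells, and did not pass the test (adjusted p = 0.405). The untreated Ifit2 values were almost equal, and its phenylephrine pair was lower in PMCA4-/- cells by 0.18 on the log2 scale. With the shift of neighbouring genes subtracted, the fit called Ifit2 lower (log2 difference -0.42, adjusted p = 0.0222).

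The promoters of 28 of the 38 genes were matched by symbol to windows from RefSeq (GRCm38.p6), each running from 250 bases before the start of transcription to 50 after it. The core of the interferon-stimulated response element was searched as GAAA, any 2 bases and GAAA again, on both strands, and matches may overlap. It was in the window of 15 of the 28 genes and in 3.99% of the 27025 genes with a window. The interferon gamma activated site, searched as TTCNNNGAA on both strands, was in 8 of the 28 and in 9.55% of all genes. Among genes with a window, the response element core was in 2 of the 8 that were at least 2-fold higher in both pairs, Ifit1 and Oas1a, and in 9 of the 13 that were under 1.5-fold apart in both pairs. The 8 include Irf7, Oas1a, Cmpk2 and Ifi44, which were counted only through their PMCA4-/- values. With low values raised, Irf7 and Cmpk2 did not reach 2-fold with phenylephrine. These counts are therefore descriptions, and a difference between them was not tested. The 5 windows below are shown because they pair genes with and without a match and with and without a difference. They lie at chr19:34640639-34640938 (plus strand) for Ifit1, chr19:34583279-34583578 (plus) for Ifit3, chr5:120907476-120907775 (minus) for Oas1a, chr3:142620413-142620712 (plus) for Gbp2 and chr5:114896684-114896983 (plus) for Oasl2. Capitals mark matches to that core or its reverse complement, and each sequence reads 5′ to 3′ on the strand of its gene.
Ifit1: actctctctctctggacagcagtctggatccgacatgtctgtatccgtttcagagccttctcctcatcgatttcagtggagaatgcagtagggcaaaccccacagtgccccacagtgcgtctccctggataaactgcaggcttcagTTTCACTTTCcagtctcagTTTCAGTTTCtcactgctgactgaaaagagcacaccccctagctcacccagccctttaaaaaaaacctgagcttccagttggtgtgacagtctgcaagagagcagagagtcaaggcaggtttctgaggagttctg
Ifit3: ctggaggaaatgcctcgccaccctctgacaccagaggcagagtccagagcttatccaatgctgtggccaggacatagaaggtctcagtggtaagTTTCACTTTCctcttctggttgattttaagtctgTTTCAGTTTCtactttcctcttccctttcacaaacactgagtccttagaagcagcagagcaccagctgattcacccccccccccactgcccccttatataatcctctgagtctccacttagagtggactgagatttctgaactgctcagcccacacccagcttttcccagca
Oas1a: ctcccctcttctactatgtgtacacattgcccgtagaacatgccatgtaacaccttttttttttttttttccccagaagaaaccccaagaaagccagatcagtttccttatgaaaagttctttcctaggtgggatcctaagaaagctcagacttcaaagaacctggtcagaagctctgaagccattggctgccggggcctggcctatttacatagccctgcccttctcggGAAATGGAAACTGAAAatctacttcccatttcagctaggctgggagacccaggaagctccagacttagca
Gbp2: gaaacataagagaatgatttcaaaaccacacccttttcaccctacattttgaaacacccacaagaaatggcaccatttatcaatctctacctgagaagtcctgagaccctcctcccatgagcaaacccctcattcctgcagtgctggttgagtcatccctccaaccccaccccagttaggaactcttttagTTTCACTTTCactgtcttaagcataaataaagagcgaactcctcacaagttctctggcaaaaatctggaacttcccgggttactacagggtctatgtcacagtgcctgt
Oasl2: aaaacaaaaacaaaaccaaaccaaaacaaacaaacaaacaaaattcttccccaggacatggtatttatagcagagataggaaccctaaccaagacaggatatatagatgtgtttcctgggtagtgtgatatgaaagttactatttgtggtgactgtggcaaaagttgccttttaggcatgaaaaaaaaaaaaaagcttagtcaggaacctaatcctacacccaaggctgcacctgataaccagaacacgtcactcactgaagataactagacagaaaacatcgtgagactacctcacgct
Ifit1 and Ifit3 each held 2 matches and Oas1a held 2 that overlap. Gbp2, which did not pass the genotype test, held 1, and Oasl2, which was higher in both pairs, held none in this window.

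Of the modifiers, Trim25, a ubiquitin ligase that activates the RNA sensor RIG-I, read 1369 and 1307 in PMCA4-/- cells with and without phenylephrine, against 435 and 442 in WT cells. Arrays of 1 genotype lay close together, and the difference was 3.15-fold with phenylephrine and 2.96-fold untreated (limma adjusted p = 0.000851). A separate Trim25 probe set gave log2 differences of 1.61 and 1.53. Parp9 and Parp14, ADP-ribosyltransferases, had log2 differences between -0.10 and 0.09 in the pairs and did not pass the test. With neighbours subtracted, Parp9 was called higher (log2 difference 0.28, adjusted p = 0.0452).

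Among the antiviral effectors, Isg20, an RNA exonuclease, read 559 and 504 in PMCA4-/- cells with and without phenylephrine, against 218 and 245 in WT cells, 2.56-fold and 2.05-fold higher (limma adjusted p = 0.00363). Cmpk2, a mitochondrial nucleotide kinase, read 64.6 and 75.2 in PMCA4-/- cells, against 20.9 and 11.0 in WT cells. Its WT values were under the array median, so it was at least 1.90-fold higher with phenylephrine and at least 2.21-fold untreated. Bst2, or tetherin, which holds budding virus at the cell surface, was higher by 0.49 ± 0.07 (SE, adjusted p = 0.00959). Ifitm3, which blocks virus fusion in endosomes, read 12011 and 12284 in PMCA4-/- cells, against 13914 and 13058 in WT cells. Its PMCA4-/- values were both under its WT values, by 0.21 and 0.09 on the log2 scale, and the test was not passed (adjusted p = 0.170). By RMA the limma fit called Ifitm3 lower, by 0.17 (adjusted p = 0.0456). Gbp2 and Gbp3, interferon-induced GTPases, were not called. Gbp2 was called lower with neighbours subtracted (log2 difference -0.46, adjusted p = 0.0286). Gbp3 was called higher, by 0.27, under the upper quartile filter (adjusted p = 0.00763) and with an intensity trend (adjusted p = 0.0015), and its sign turned with neighbours subtracted (-0.10, adjusted p = 0.576).

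The remaining interferon-induced genes held the largest exact fold. Ifi27l2a, a small membrane protein of the ISG12 family, read 2002 and 2548 in PMCA4-/- cells with and without phenylephrine, against 343 and 240 in WT cells. It was 5.83-fold higher with phenylephrine and 10.6-fold untreated (limma log2 difference 2.98 ± 0.23 SE, adjusted p = 0.00267). Ifi44 read 173 and 197 in PMCA4-/- cells, against 28.8 and 33.6 in WT cells, at least 5.08-fold and at least 5.79-fold higher. Rtp4 read 1385 and 1679 in PMCA4-/- cells, against 540 and 482 in WT cells, 2.57-fold and 3.48-fold higher (adjusted p = 0.00307). Xaf1, which binds the apoptosis inhibitor XIAP, was higher by 0.57 ± 0.08 (SE, adjusted p = 0.0102). Ifi35 read 1794 and 1835 in PMCA4-/- cells, against 2076 and 1867 in WT cells, and did not pass the test (adjusted p = 0.298).

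**Figure D2:**
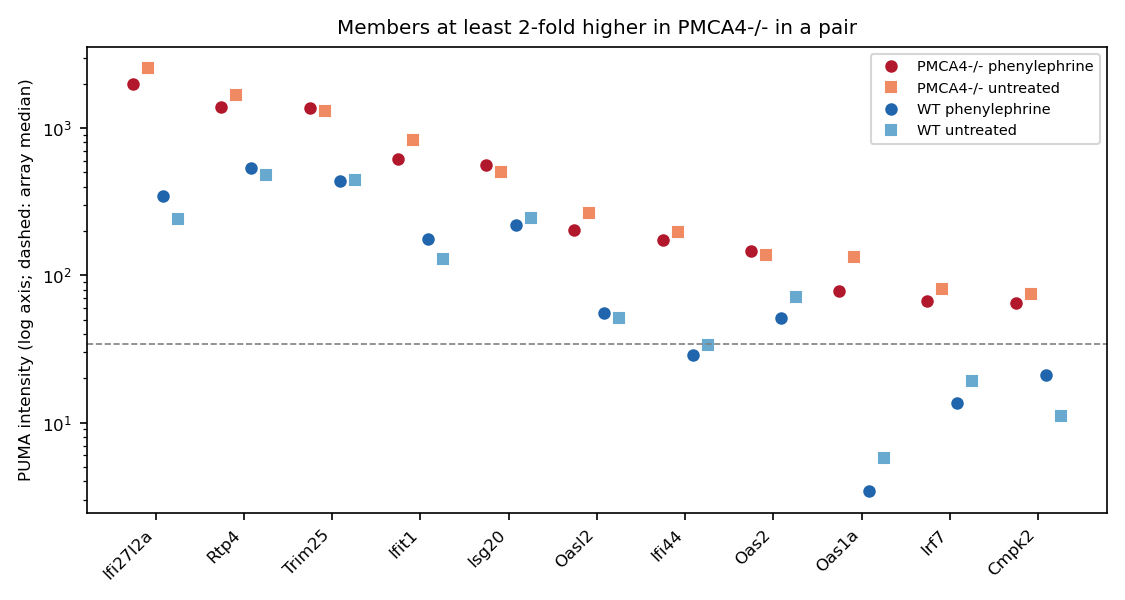
PUMA intensity on a log axis of the 11 genes at least 2-fold higher in PMCA4-/- cells in a pair, 1 point per array, PMCA4-/- in red and WT in blue, circles with phenylephrine and squares untreated. The genes were chosen for this difference, so the gap between genotypes is no finding, and the WT points of Irf7, Oas1a, Cmpk2 and Ifi44 lie under the dashed array median.

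The counted sensors and antigen presentation genes were all under 1.5-fold apart in both pairs. Eif2ak2, the double-stranded RNA-activated kinase that halts translation, read 336 and 338 in PMCA4-/- cells with and without phenylephrine, against 278 and 259 in WT cells (limma log2 difference 0.33 ± 0.07 SE, adjusted p = 0.0286). Ddx58 and Ifih1, which encode the RNA sensors RIG-I and MDA5, had log2 differences of 0.00 and -0.06 and were not called. Ifih1 was called higher with neighbours subtracted (0.46, adjusted p = 0.0297). Zbp1, a sensor of Z-form nucleic acid, stood at -0.23 and was not called (adjusted p = 0.122). With an intensity trend it was called lower (adjusted p = 0.0299), and with the median over probe sets its log2 difference was 0.10 (adjusted p = 0.621). Tap1, the peptide transporter, was higher by 0.43 ± 0.08 (SE, adjusted p = 0.0163). B2m, the class I light chain, read 11092 and 11911 in PMCA4-/- cells, against 10152 and 8876 in WT cells, and did not pass the test (adjusted p = 0.0892). It was called higher by RMA (adjusted p = 0.019), under the upper quartile filter (adjusted p = 0.00235) and with an intensity trend (adjusted p = 0.0195).

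The 6 genes that were not counted were Dhx58, Oas3, Oasl1, Mx1, Mx2 and Rsad2. Their intensities ran from 0.213 to 50.7, and 1 of their 24 values exceeded the array median, that of Dhx58 in untreated PMCA4-/- cells. No fold is given for the others.

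Of the counted genes, 9 had another probe set above the filter, 11 probe sets in all. The sign of the genotype difference was the same as on the main probe set for 8 of the 11 with phenylephrine and for 10 of 11 untreated. With phenylephrine the exceptions were Ddx58 (log2 difference -0.127, against 0.057 on the main probe set), Xaf1 (-0.155 against 0.479) and Zbp1 (1.017 against -0.363). In the untreated pair the exception was Ddx58 (0.119 against -0.049). By RMA, 28 of the 30 genes had the same sign as by PUMA in both pairs, the exceptions being Ddx58 and Ifit2. The genes at least 2-fold higher in both pairs by RMA were 7, all among the 10 by PUMA, and Irf7, Oas1a and Isg20 fell short.

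**Figure D3:**
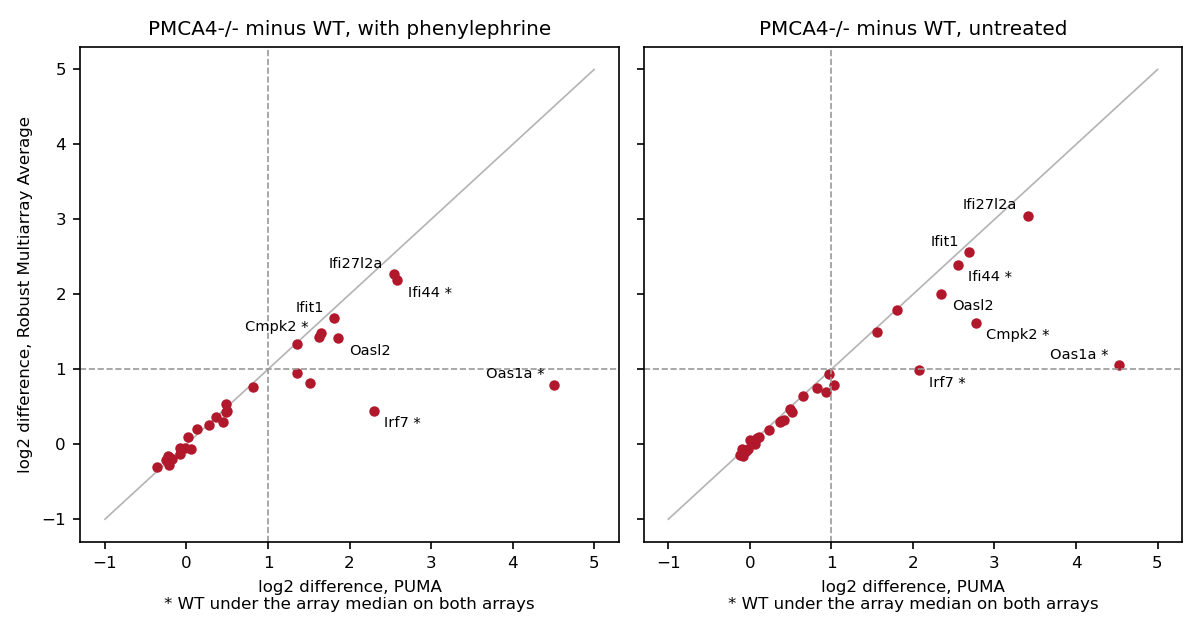
Log2 difference PMCA4-/- minus WT by PUMA (horizontal axis) and by RMA (vertical axis) for the 30 counted genes, with phenylephrine on the left and untreated on the right, 1 point per gene. Most points lie near the grey line of equal values, while Oas1a has 0.79 and 1.06 by RMA and lies far to the right by PUMA. Asterisks mark genes with both WT values under the array median, whose PUMA differences are not exact.

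The second comparison asked what phenylephrine did in each genotype. No gene of the set was 2-fold apart, against 0.236% of all counted genes higher and 0.271% lower in PMCA4-/- cells, and 0.219% higher and 0.254% lower in WT cells. At 1.5-fold none was higher with phenylephrine in PMCA4-/- cells, against 0.867%. Oas1a was lower with phenylephrine in PMCA4-/- cells (1 of 30 genes, against 0.858% of all counted genes), and in WT cells Cmpk2 was higher (1 of 30, against 0.788%) and Oas1a lower (1 of 30, against 0.823%). The WT values of both genes were under the array median. The limma fit called 0 of 11424 genes for phenylephrine, with 459 at an unadjusted p under 0.05, 3 of them in the set (Irf7, Oas1a and Ifi44, all under the array median on both WT arrays). The lowest adjusted p in the set was 0.978.

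The phenylephrine differences had opposite signs in the genotypes for many of the genes. In PMCA4-/- cells 21 of 30 were lower with phenylephrine, with a median log2 difference of -0.08 beside 0.03 over all counted genes. In WT cells 19 of 30 were higher, with a median of 0.10 beside 0.04. Both held for 16 of the 30 genes, against 25.4% of all counted genes, and by RMA for 19, against 21.3%. Signs were counted whatever their size, down to -0.006 for Eif2ak2 in PMCA4-/- cells. Cmpk2 is among the 16, though both its WT values were under the array median. Ifit1 was lower with phenylephrine by 0.41 in PMCA4-/- cells and higher by 0.46 in WT cells, and Ifi27l2a was lower by 0.35 and higher by 0.52. With 1 array per condition the difference between the 2 responses could not be tested.

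**Figure D4:**
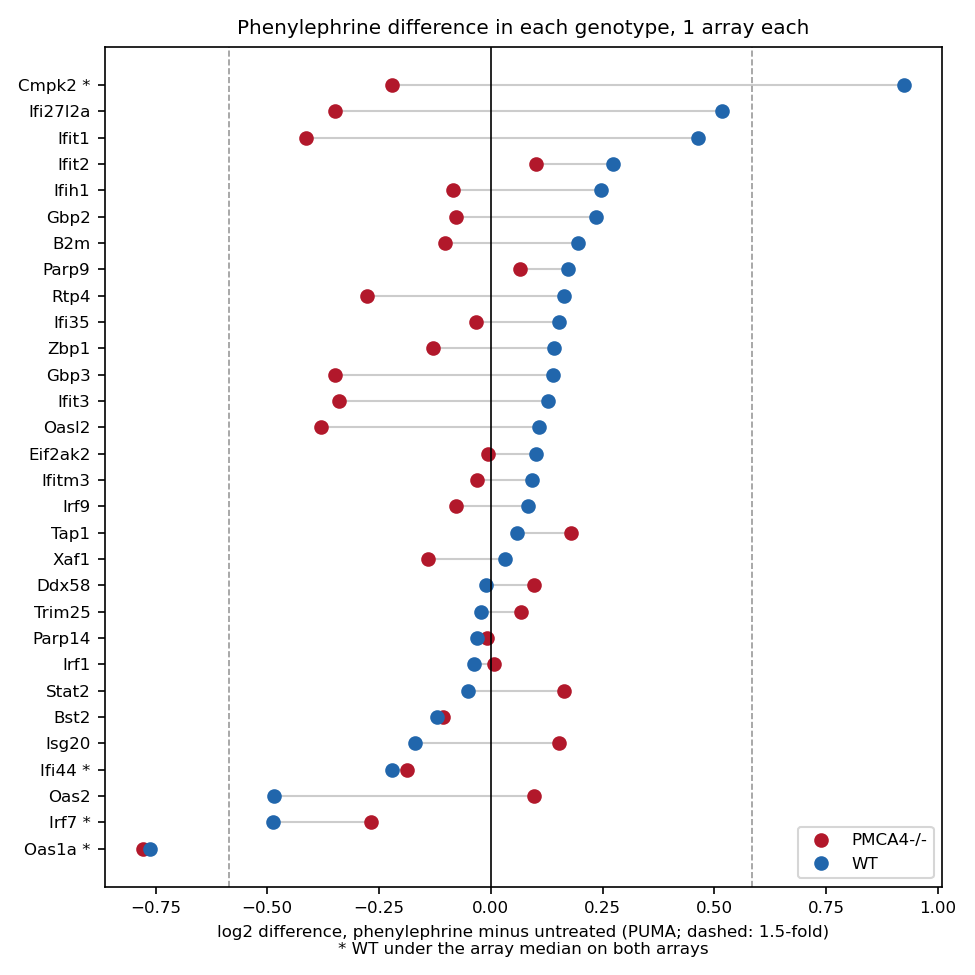
Log2 difference of PUMA intensity, phenylephrine minus untreated (horizontal axis), in PMCA4-/- cells (red) and WT cells (blue) for the 30 counted genes, 1 array per condition. Values in PMCA4-/- cells ran from -0.78 to 0.18, dashed lines mark 1.5-fold, and asterisks mark genes with both WT values under the array median, among them Oas1a and Cmpk2 at the ends of the WT range.

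The upstream genes of the pathway were read from lists of related genes, also chosen with earlier results of these data known. The counts of limma calls in these lists stand beside 24.6% of all counted genes called higher and 25.7% lower, 50.3% in all. Of the ligands, Ifnb1, the fibroblast interferon, read 12.3 and 19.4 in PMCA4-/- cells with and without phenylephrine, against 15.5 and 13.0 in WT cells, all under the array median, and Ifna1, Ifna2, Ifna4 and Ifng were not counted either. Ifnar1, a chain of the type I receptor, read 698 and 682 in PMCA4-/- cells, against 977 and 952 in WT cells, and was lower by limma (log2 difference -0.48 ± 0.07 SE, adjusted p = 0.00994). Ifnar2, the other chain, read 2109 and 1982 in PMCA4-/- cells, against 2500 and 2334 in WT cells, and did not pass the test (adjusted p = 0.0503). Of the 5 counted ligands and receptors, 2 were lower and none higher, against 25.7% and 24.6% of all counted genes.

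Among 10 counted genes of JAK-STAT signalling, 2 were higher and 4 lower, near the 50.3% of all counted genes called. Jak1 read 2852 and 2757 in PMCA4-/- cells with and without phenylephrine, against 2808 and 2698 in WT cells, and was not called, and Tyk2 read 93.6 and 57.0 in PMCA4-/- cells, against 84.0 and 93.4 in WT cells. Of 12 sensing adaptors and kinases, 2 were higher and 3 lower, also near that share. Irf3, the factor that starts interferon transcription, read 516 and 477 in PMCA4-/- cells, against 494 and 490 in WT cells.

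Of 15 counted genes of class I antigen processing, 6 were higher and 1 lower, against 24.6% and 25.7% of all counted genes. Nlrc5, a transcriptional activator of class I genes, was the only one at least 2-fold apart in both pairs. It read 82.1 and 84.8 in PMCA4-/- cells with and without phenylephrine, against 36.6 and 28.8 in WT cells. The untreated WT value was under the array median, so the difference was 2.24-fold with phenylephrine and at least 2.496-fold untreated. Nlrc5 is among the 6 called higher, and it passed the filter only through its PMCA4-/- values, so its call is a description. In the related list of interferon-induced GTPases all 8 counted genes were called, 6 higher and 2 lower, against 50.3% of all counted genes called. That list leaves out Gbp2 and Gbp3 of the set, which were not called. Gbp8 read 82.7 and 82.1 in PMCA4-/- cells, against 7.90 and 9.52 in WT cells, at least 2.42-fold higher untreated. It was counted only through its PMCA4-/- values, and without it 5 were higher and 2 lower.

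Among 34 further interferon-stimulated genes, 13 were higher and 9 lower, against 24.6% and 25.7% of all counted genes. Ddx60 and Cxcl10 were under the array median on both WT arrays and Il15 on both PMCA4-/- arrays, so they had to differ to be counted, and without them 11 were higher and 8 lower. Il15, a lymphocyte growth factor, ran against the set, with 4.04 and 6.16 in PMCA4-/- cells with and without phenylephrine, against 226 and 255 in WT cells, at least 7.49-fold lower untreated. Lgals9, a galectin, read 396 and 339 in PMCA4-/- cells, against 828 and 825 in WT cells. Uba7, the enzyme that activates ISG15 for conjugation, read 52.9 and 50.9 in PMCA4-/- cells, against 110 and 104 in WT cells. Ifi30, a lysosomal thiol reductase, was higher, with 996 and 915 in PMCA4-/- cells, against 424 and 449 in WT cells.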

How the data were processed

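Labelled cRNA made from 6 µg total RNA of each of the 4 samples was hybridised to 1 Affymetrix array each. The authors deposited linear intensity values for 45037 probe sets, estimated with PUMA and with RMA, and a series table in which all 180148 intensity values equal those of PUMA within a share of 0.0001. MAS5 and RMA are the tools listed in the submitters' processing notes. Versions of PUMA and RMA, and the build: not given in the sources used here. The 12 deposited columns of fold changes and probabilities between arrays were not used. The methods name MOE430A arrays and 3 RNA pools of each genotype, while 4 arrays were analysed here.

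Of the probe sets, 37818 had 1 readable symbol, brought to RefSeq GRCm38.p6 where possible. Intensities were log2-transformed without a pseudocount. A gene was counted above a mean PUMA intensity of 35.1. Pairs of arrays were compared at 2-fold, and at 1.5-fold for phenylephrine, without p-values. A value under its array's median was raised to that median for "at least" folds. Limma (version 3.58.1, R 4.3.3; lmFit and eBayes, genotype plus phenylephrine, 1 residual and 2.96 prior degrees of freedom) was fitted to all counted genes, with Benjamini-Hochberg adjustment over 11424 genes and a threshold of 0.05. Precision is limited by the number of arrays. The members and lists were chosen with earlier results of these data known. The 4 intensities are given for counted members at least 2-fold apart between genotypes or 1.5-fold with phenylephrine and for the brightest of each role, and from each related list for genes that differed at least 2-fold and with the same sign in both pairs, plus Ifnb1, Ifnar1, Ifnar2, Jak1, Tyk2 and Irf3. A gene of the rule is not reported here. Alternatives were RMA, median centring, quantile normalization, raised low values, the median over probe sets, other filters, an intensity trend and a fit with 1 factor. Subtracting the shift of 100 neighbouring genes and raising low values with no filter were added after the data were seen.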

Additional observations from a re-analysis of the deposited data

Results flagged for a closer look

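Ifit1 and Ifi27l2a are listed because their phenylephrine differences were at least 1.2-fold and of opposite sign in the genotypes, by PUMA and in sign by RMA. The share of all counted genes that met this rule was not computed, so the listing is a description. Ifit1 had a log2 difference, phenylephrine minus untreated, of -0.413 in PMCA4-/- cells and 0.463 in WT cells. Ifi27l2a had -0.348 in PMCA4-/- cells and 0.516 in WT cells. The difference between the responses was not tested, since each condition had 1 array.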

How the results depend on the processing

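No paired analysis was possible because each condition had 1 array, so that no replicate number could serve as a block; treatment was a term of the limma fit. For the same reason no array could be left out. A count was taken as unchanged within 1.5 times and a median within 0.1 on the log2 scale, and 144 of 160 summary values were. The upper quartile filter kept 21 members, and with no filter there were 36, beside 30 in the main setting. In the phenylephrine pair, 11 of 30 members at least 2-fold higher became 7 of 30 by RMA and 5 of 21 under the upper quartile filter. The 10 of 30 in the untreated pair became 5 of 21 under that filter. The median of the phenylephrine pair, 0.46, became 0.34 with the median over probe sets, 0.13 with the upper quartile filter, 0.20 with no filter and low values raised, and 0.35 with the shift of neighbouring genes subtracted. For phenylephrine against untreated within PMCA4-/- cells, the count lower with phenylephrine became 1 at 1.5-fold. For the same comparison within WT cells, the count higher became 1 at 1.5-fold, and the count lower became 1 at 1.5-fold and 1 with no filter. The 18 of 30 members that limma called higher became 0 of 36 with no filter, where no gene at all was called (lowest adjusted p over all genes 0.13). They became 3 (Trim25, Bst2 and Ifi44) with no filter and low values raised, where 2718 of 20586 genes were called. The 0 called lower became 1 by RMA, 1 with an intensity trend and 2 with neighbours subtracted. Of 261 single-gene limma values under settings that keep a filter, 242 stayed on their side of the threshold (146 called and 96 not called both times), 7 lost their call (Eif2ak2, Stat2, Ifit3 and Xaf1 with the median over probe sets, and Stat2, Ifit3 and Bst2 with neighbours subtracted), 10 gained one, and 2 turned sign with a call before or after. Among values never called, 7 more turned sign (Ddx58 by RMA and with the median over probe sets, Zbp1 with that median, and Irf1, Parp14, Gbp3 and Ifi35 with neighbours subtracted). Ifih1 became 0.46 with neighbours subtracted, and Tap1 became -0.23 with the median over probe sets, where its other 3 probe sets were under the filter. The causes of the other changes were not tested. Dim signal limits Irf7, Oas1a, Cmpk2, Ifi44 and the 6 genes not counted.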
